A study of Mus musculus with 6 samples.

Results

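The chemokines and their receptors were examined in whole lungs of mouse embryos in which the transcription factors Foxp1 and Foxp4 had been targeted in Shh-expressing cells. Members were all genes of the deposited annotation whose symbol began with Ccl, Cxcl, Ccr, Cxcr, Cx3c, Xcl or Xcr, with a number or the letter l or r following. The rule gave 56 of 21999 gene symbols, 36 ligands and 20 receptors, measured by 67 of 28815 probe sets. A gene with several probe sets was represented by the one with the highest mean over the 6 arrays. The rule used names only and no measured difference between the groups.

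Chemokines are small secreted or membrane-bound proteins that guide migrating cells by engaging G protein-coupled receptors. They are sorted by the spacing of their first cysteines into the CC, CXC, C and CX3C classes, and atypical receptors bind and remove them without the usual G protein signal. In the lung they are known for recruiting white blood cells, and Cxcl12 with its receptor Cxcr4 also guides blood vessel and progenitor cells during development.

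Each group held 3 embryos at stage E14.5, 1 array per embryo. Control embryos carried Shh-cre. Mutant embryos carried Shh-cre together with homozygous floxed alleles of both genes, written Shh-cre:Foxp1flox/flox:Foxp4flox/flox. Both groups therefore shared Shh-cre. The labels do not state the Foxp1 and Foxp4 alleles of the controls, and the labels give both the mixed background C57BL/6 and 129X1,129S1. In the lung, Shh is a gene of the epithelium, while the arrays read RNA of the whole organ, including cells without recombination. In such bulk samples, fewer cells of a type and less RNA per cell cannot be told apart.

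Values are log2 expression per probe set as the authors normalised them, and a log2 change is mutant minus control with n = 3 per group. The labelled tissue was checked against the lung epithelial factor Nkx2-1, which read 10.99 to 11.14 over the 6 arrays, and the lung mesenchymal factor Tbx4, which read 12.23 to 12.31. Foxp4 fell by 0.41 on the log2 scale (limma, adjusted p = 0.0190), and Foxp1 was 0.27 lower without passing (log2 change -0.27, adjusted p = 0.0884). Array medians lay between 8.21 and 8.23. Control 3 was the 1 array with the female pattern of Xist (12.83) and Ddx3y (5.89). It was also the array with the highest value for 22 of the 56 members, or 39.3%, against 28% of all probe sets.

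Across the family, 1 gene fell, 0 rose and 55 did not pass the test (limma, Benjamini-Hochberg adjusted p under 0.05 over all probe sets). Among all probe sets, 0.774% passed, 0.26% as lower and 0.514% as higher in the mutant. The member that fell was Ccl28, a CC ligand made by mucosal epithelia that attracts lymphocytes through Ccr10 and eosinophils through Ccr3. At an unadjusted p under 0.05, 4 members were lower and 2 higher, together 10.7% of the family. Of all probe sets, 11.8% met that limit, 6.56% as lower and 5.22% as higher. The values of the groups did not overlap for 5 members on the lower and 2 on the higher side, or 12.5% of the family. Of all probe sets, 18% had groups that did not overlap, 10.1% as lower and 7.83% as higher. In 37 of the 56 members the change was below 0, or 66.1%, against 58.4% of all probe sets. Changes of at least 0.2 in size were seen in 5 members, or 8.93%, against 6.76%. Such a size with groups that did not overlap was met by 3 members (Ccl28, Cxcl16 and Cxcr7) and 4.57% of all probe sets. The median log2 change was -0.02 for the members and -0.02 for all probe sets, and the median size of a change was 0.0589 and 0.0597. The shares in these sentences were near the background of the array, with Ccl28 as the one call.

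**Figure D1:**
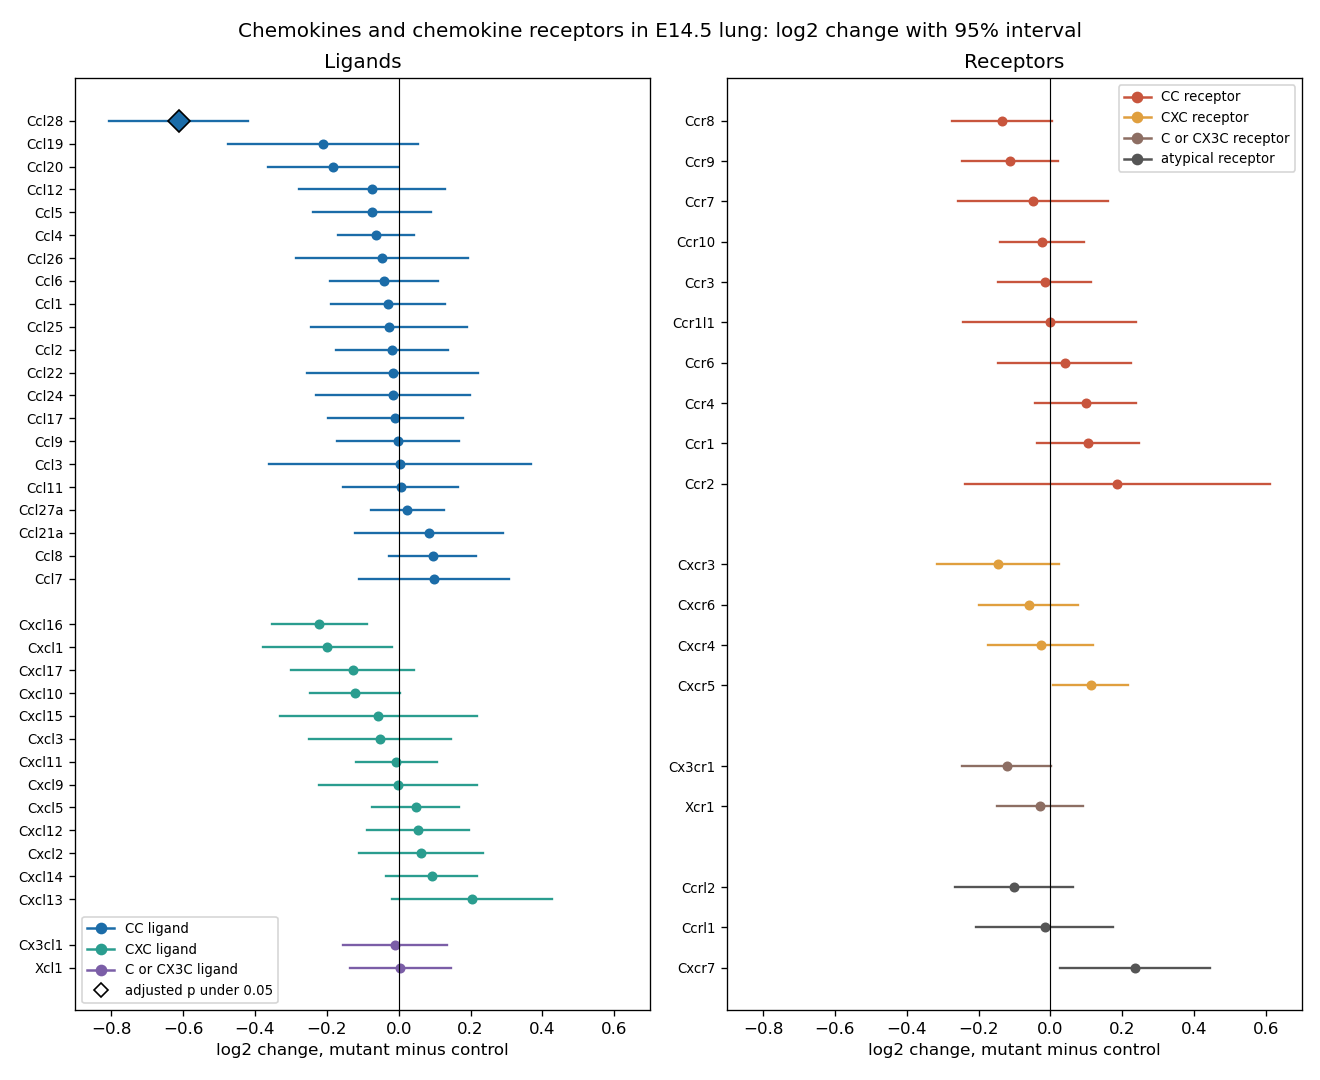
Log2 change of 55 of the 56 members, mutant minus control, with the 95% interval of the limma fit (n = 3 arrays per group), ligands on the left and receptors on the right, coloured by class. Ccl28 at -0.61 stands apart from the other members, whose changes lie between -0.22 and 0.24, and most intervals cross 0.

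The precision of the arrays bounds what could have been missed. The 95% interval of the log2 change lay within -0.3 to 0.3 for 43 of the 56 members and within -0.5 to 0.5 for 54, the exceptions being Ccl28 and Ccr2. Signal was low for much of the family. Of the 56 members, 23 had a mean under the 30th percentile of all probe sets (6.93 on the log2 scale), 19 lay between that and the median (8.21), and 14 lay at or above the median. A change in a transcript close to background would be understated on this scale, so the narrow intervals of the dim members describe the signal and not necessarily the transcript. The 14 brighter members had 8 changes above 0 and a median change of 0.01, and the other 42 had 11 above 0 and a median of -0.03. The same split over all probe sets gave medians of -0.00106 and -0.0364.

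The upstream sequence of Ccl28 and of Cxcr7, the decoy receptor for Cxcl12 now named Ackr3, is shown because these were the lowest and the highest change in the family. Each window runs from 250 bases before to 50 bases after the transcription start (RefSeq, GRCm38.p6, plus strand, 5′ to 3′), at chr13:119623569-119623868 for Ccl28 and chr1:90203730-90204029 for Cxcr7.
Ccl28: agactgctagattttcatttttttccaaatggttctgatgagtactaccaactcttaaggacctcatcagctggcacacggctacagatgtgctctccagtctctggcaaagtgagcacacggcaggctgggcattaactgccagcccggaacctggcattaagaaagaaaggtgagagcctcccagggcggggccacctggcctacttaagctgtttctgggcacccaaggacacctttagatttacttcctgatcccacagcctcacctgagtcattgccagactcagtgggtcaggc
Cxcr7: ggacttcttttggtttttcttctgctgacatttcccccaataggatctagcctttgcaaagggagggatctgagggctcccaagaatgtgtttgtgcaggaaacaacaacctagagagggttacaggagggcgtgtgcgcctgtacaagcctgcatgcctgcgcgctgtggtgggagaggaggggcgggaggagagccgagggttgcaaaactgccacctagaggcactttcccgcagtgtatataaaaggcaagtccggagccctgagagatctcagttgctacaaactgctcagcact
Both windows were searched on both strands for the forkhead core letters TAAACA and for the NF-kB letters GGGA followed by any base and TTTCC, and neither held a match. These 2 motifs do not overlap in their letters. Windows were given for 41 of the 56 members, 47 windows in all. The forkhead letters occurred in 8 of them, from 7 genes (Ccl27a, Ccr1l1, Cxcl10, Cxcl15, Cxcr3, Xcl1 and Xcr1), against 13.4% of 32851 windows of the same length. None of these 7 genes passed the test. The NF-kB letters occurred in 4 member windows (Ccr3, Cxcl1, Cxcl2 and Cxcl3), against 0.411% of all windows.

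Among the CC ligands, 1 of 21 fell and 20 did not pass, 6 with a change above 0 and 15 below. Ccl28 read 7.42, 7.36 and 7.23 in the control lungs and 6.84, 6.77 and 6.56 in the mutant lungs. All 3 mutant values lay below all 3 control values. They also lay below the 30th percentile of signal (6.93), and the mean of Ccl28 over the 6 arrays was 7.03. The means were 7.34 ± 0.10 and 6.72 ± 0.14 (SD, n = 3), a log2 change of -0.61 with an SE of 0.08 and a 95% interval of -0.81 to -0.42, or 1.53-fold lower (limma, adjusted p = 0.0301). The 2-sided exact permutation test gave p = 0.1, the smallest that 3 against 3 allows. In the authors' deposited table, Ccl28 had a signed fold of -1.53 and a q-value of 1.27%, and it was the 1 member with a q under 5%, a limit that 1.72% of all probe sets met. The call was narrow: the adjusted p was 0.0638 without control 1, 0.0948 without control 2 and 0.0876 without mutant 2, but 0.0430 without control 3, with log2 changes of -0.67 to -0.53 over the alternatives.

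**Figure D2:**
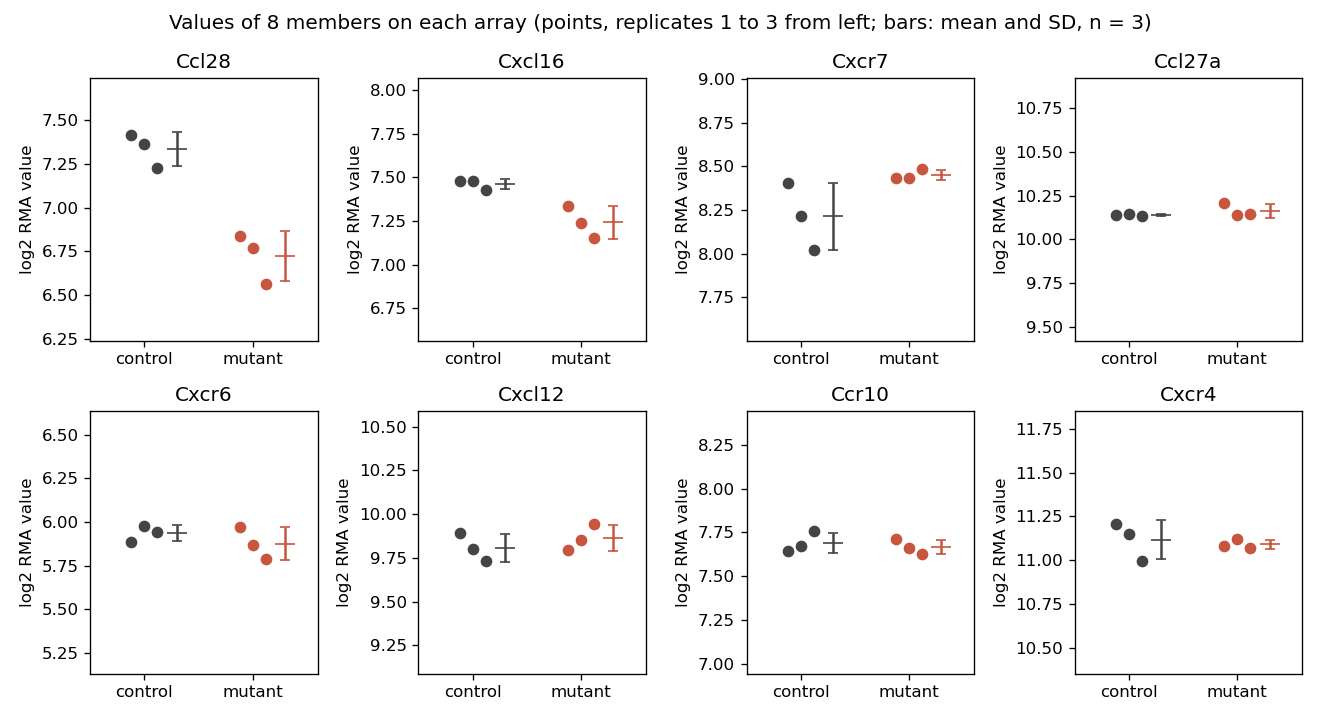
Log2 expression of selected members in each of the 6 arrays (points, replicates 1 to 3 from left), with the mean and SD of each group (n = 3); axes cover different values. The 3 mutant values of Ccl28 (6.56 to 6.84) lie below its 3 control values (7.23 to 7.42), while the groups of Cxcl12 and Ccr10 overlap.

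The other genes of that axis did not pass. Ccr10, the receptor of Ccl28 on plasma cells and skin-homing T cells, read 7.65, 7.67 and 7.76 in controls and 7.71, 7.66 and 7.63 in mutants, and the groups overlapped. Its log2 change was -0.02 with a 95% interval of -0.14 to 0.09, so a change as large as that of Ccl28 lay outside the interval. Ccl27a, the skin ligand of Ccr10, had a log2 change of 0.02 (interval -0.08 to 0.12) on its brightest probe set and -0.02 on both others, which held identical values. Its genomic copies lie close to the copies of Ccl19 and Ccl21a on chromosome 4, and probe sets of this stretch may read more than 1 copy.

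Ccl19, a Ccr7 ligand that draws T cells and dendritic cells into lymphoid tissue, read 7.55, 7.93 and 7.99 in controls and 7.71, 7.55 and 7.57 in mutants. All mutant values lay within the range of a spread-out control group. The log2 change was -0.21 (SE 0.11, adjusted p = 0.512). The 5 probe sets of the gene, some of them with identical values, ranged from -0.27 to -0.21. Ccl20, the Ccr6 ligand of mucosal surfaces, read 7.29, 7.25 and 7.52 in controls against 7.18, 7.23 and 7.11 in mutants. Its groups did not overlap, and its log2 change of -0.18 did not pass (SE 0.08, adjusted p = 0.422). Ccl4, made by activated macrophages, had a change of -0.06 (adjusted p = 0.618), and Ccl8, a monocyte-attracting ligand, had 0.09 (adjusted p = 0.520). The other 15 CC ligands had overlapping groups and log2 changes of -0.07 to 0.10, with adjusted p of 0.695 or more.

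Of the 13 CXC ligands, 0 passed in either direction, with 5 changes above 0 and 8 below. Cxcl16 came closest. This transmembrane ligand of Cxcr6, shed from epithelial cells and macrophages, read 7.48, 7.48 and 7.43 in controls and 7.34, 7.24 and 7.15 in mutants. All mutant values lay below all control values, by a smaller margin than for Ccl28. The log2 change was -0.22 with an SE of 0.06 and an interval of -0.35 to -0.09 (limma, adjusted p = 0.20), and the authors' deposited table gave it a q-value of 10.2%. For Cxcr6, its receptor on T cells and natural killer T cells, the difference was -0.06 on the log2 scale (adjusted p = 0.713).

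Cxcl1, a neutrophil attractant that acts through Cxcr2, read 7.84, 7.98 and 8.11 in controls and 7.86, 7.76 and 7.72 in mutants. Control 1 lay just below mutant 1, so the groups overlapped, and the log2 change was -0.20 (SE 0.08, adjusted p = 0.380). Cxcl1 and its chromosome 5 neighbours Cxcl2 and Cxcl3 share the NF-kB letters upstream of their start sites, and these 30-base stretches are shown with the match in capitals (RefSeq, GRCm38.p6, plus strand, 5′ to 3′). They lie at chr5:90891164-90891193 for Cxcl1, chr5:90903792-90903821 for Cxcl2 and chr5:90786018-90786047 for Cxcl3.
Cxcl1: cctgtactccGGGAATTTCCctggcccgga
Cxcl2: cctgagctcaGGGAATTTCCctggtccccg
Cxcl3: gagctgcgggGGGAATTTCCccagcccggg
The capitals begin 71, 97 and 73 bases before the start. These 3 genes did not share a direction, with log2 changes of -0.20 for Cxcl1, 0.06 for Cxcl2 and -0.05 for Cxcl3, none of which passed.

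Cxcl13, the B cell attractant that acts through Cxcr5, read 8.87, 8.55 and 8.73 in controls and 8.88, 8.81 and 9.07 in mutants. One control array lay within the mutant range, and the log2 change of 0.20 did not pass (SE 0.10, adjusted p = 0.455). Cxcr5 was higher in each mutant array than in any control array, at 5.86, 5.93 and 5.89 against 5.81, 5.75 and 5.78. Its log2 change was 0.11 (adjusted p = 0.392), on a probe set under the 30th percentile of signal. Cxcl10, an interferon-induced ligand of Cxcr3, read 6.63, 6.76 and 6.79 in controls and 6.58, 6.61 and 6.62 in mutants. Its groups did not overlap, with a log2 change of -0.12 (adjusted p = 0.432). Cxcl17, a mucosal chemokine, had a change of -0.13 (adjusted p = 0.531). The other 7 CXC ligands, among them the lung-enriched Cxcl15 at -0.06, had overlapping groups and changes of -0.06 to 0.09.

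The Cxcl12 axis is the chemokine pathway best known from development. Cxcl12 itself read 9.89, 9.80 and 9.73 in controls and 9.79, 9.85 and 9.94 in mutants, with overlapping groups and a log2 change of 0.05 (interval -0.09 to 0.20, adjusted p = 0.753). Cxcr4, its signalling receptor, read 11.21, 11.15 and 10.99 against 11.08, 11.12 and 11.07, with a change of -0.03 (interval -0.17 to 0.12). For this ligand and this receptor, a change of 0.3 in either direction lay outside the interval.

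Cxcr7, which binds Cxcl12 and clears it, read 8.40, 8.21 and 8.02 in controls and 8.44, 8.43 and 8.48 in mutants. The mutant values sat close together above 3 spread-out control values, of which control 3 was the lowest and control 1 nearly reached the mutants. The log2 change was 0.24 with an SE of 0.09 and an interval of 0.03 to 0.45 (limma, adjusted p = 0.373). It was the highest change in the family, did not pass, and was 0.14 without control 3 (adjusted p = 0.530). The other atypical receptors were Ccrl2, which presents the attractant chemerin and had a change of -0.10, and Ccrl1, the scavenger of Ccl19, Ccl21 and Ccl25 now named Ackr4, at -0.02.

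Receptors as a class had 0 of 20 genes passing in either direction, 7 changes above 0 and 13 below. Among the 11 CC receptors, Ccr8 of regulatory T cells differed by -0.14 on the log2 scale (adjusted p = 0.433), and Ccr9, the gut- and thymus-homing receptor for Ccl25, by -0.11 (adjusted p = 0.486). Ccr1 at 0.10 and Ccr4 at 0.10 lay on the other side of 0 (adjusted p = 0.539 and 0.564). Ccr3, Ccr6, Ccr7 and Ccr1l1 had changes of -0.05 to 0.04. Of the 4 CXC receptors, Cxcr3, an X-linked receptor of activated T cells, had a change of -0.15 (adjusted p = 0.480). Cxcr3 was also highest in control 3, the female array, at 7.74, against 7.57 and 7.71 in the male controls and 7.66, 7.46 and 7.46 in the mutants.

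Cx3cr1, the fractalkine receptor of monocytes and resident macrophages, read 9.28, 9.24 and 9.26 in controls and 9.23, 9.10 and 9.09 in mutants. Mutant 1 nearly reached the controls and the groups did not overlap. The log2 change was -0.12 (SE 0.05, adjusted p = 0.426), beside -0.01 for its ligand Cx3cl1. The C class pair of Xcl1 and its dendritic cell receptor Xcr1 had changes of 0.00495 and -0.03, each with overlapping groups.

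**Figure D3:**
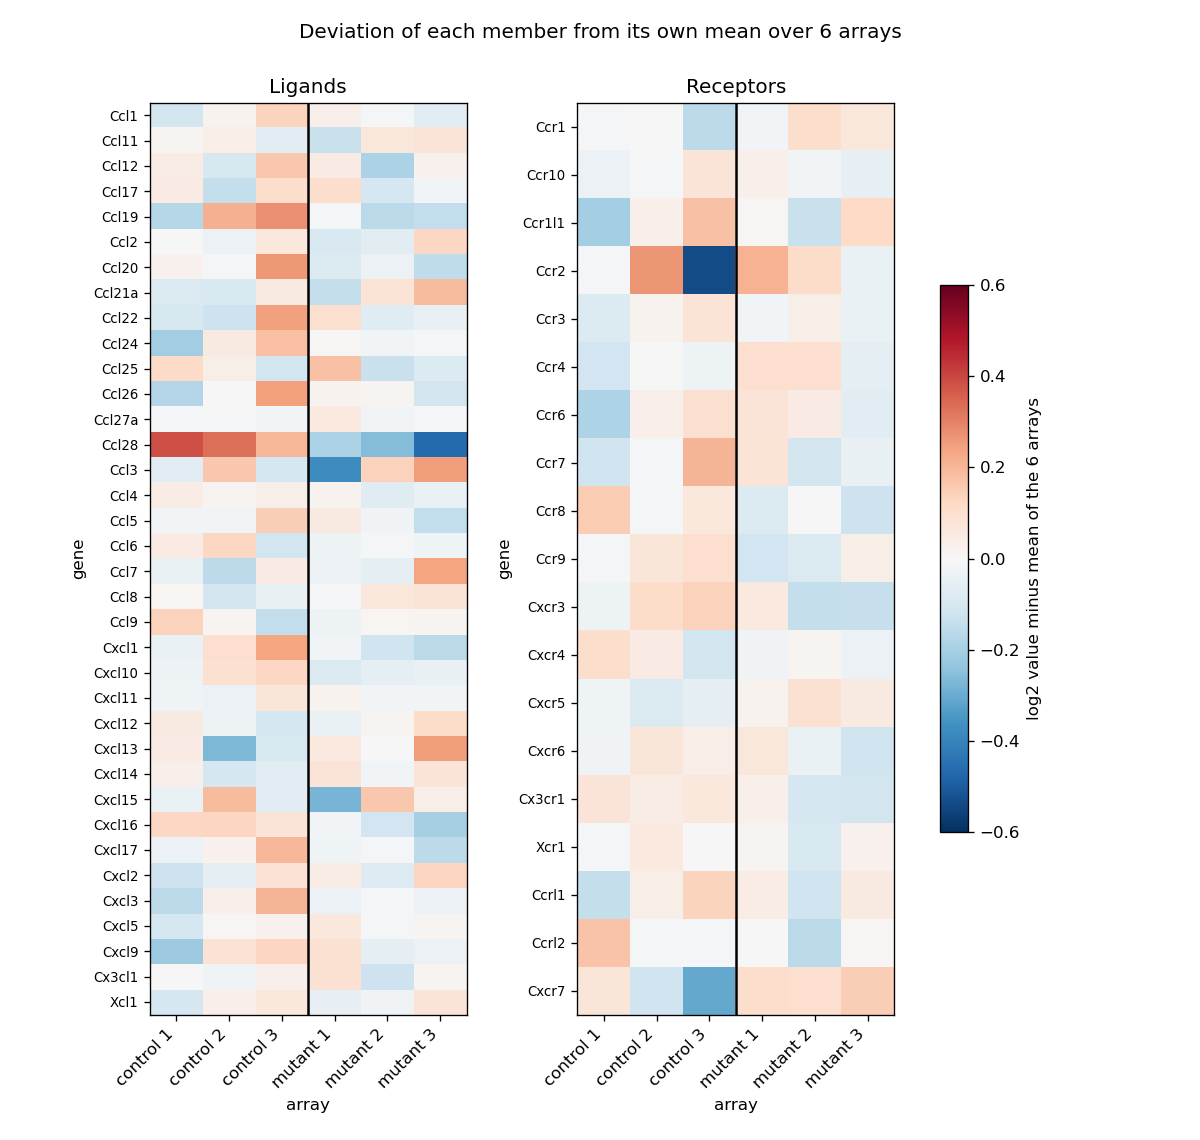
Deviation of 55 of the 56 members, as log2, from their own means over the 6 arrays (3 control, 3 mutant), ligands left and receptors right; red is above and blue below the mean. Ccl28 is above its mean in all controls and below it in all mutants, while Ccr2 has its lowest value in control 3.

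For some members 1 array set the spread. Ccr2, which brings monocytes from blood to tissue, read 7.22, 7.49 and 6.69 in controls and 7.44, 7.34 and 7.19 in mutants. Control 3 alone was low, the control range of 0.803 was the widest within a group in the family, and the log2 change was 0.19 (SE 0.18, adjusted p = 0.714), or -0.04 without control 3. The summed linear signal of 12 macrophage and monocyte markers was lowest in control 3 too, at 5950 against 5950 to 6730 over the controls and 6680 to 6970 over the mutants, and its part in these values was not tested. Ccl3, chosen after its values were seen, was spread among mutants instead, at 7.29, 7.80 and 7.92.

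The sources and responders of chemokines were compared through marker lists. Of 12 macrophage and monocyte markers, 0 passed and 10 had a change above 0. Among 8 markers of all white blood cells, 0 passed and 4 lay on each side of 0, with summed signals of 3340 to 3850 in controls and 3560 to 3820 in mutants. Of 12 lymphocyte markers, 0 passed and 11 were below 0 (sums of 1370 to 1560 and 1340 to 1410). Only 1 of the 12 lay at or above the median of signal. Of 11 mast cell and basophil markers, 2 passed, 8 were above 0 and 3 were below 0. Hdc, the enzyme of histamine synthesis, rose by 1.21 on the log2 scale (limma, adjusted p = 0.0164). Cpa3, a mast cell protease, rose by 1.19 (adjusted p = 0.0301). The other 9 did not pass, with changes from -0.09 for Kit to 0.11 for Cma1. The sums over all 11, Hdc and Cpa3 included, were 3060 to 3350 in controls and 3570 to 3770 in mutants. No sum was taken without these 2 genes, so this gap is not a reading of the other 9. Of 9 pan-epithelial markers, 0 passed, with sums of 22500 to 23700 in controls and 22900 to 24000 in mutants. Of 6 airway secretory markers, Agr2, a disulfide isomerase of mucus-producing cells, rose by 1.34 (adjusted p = 0.0157) and the other 5 did not pass, Scgb3a2 having a change of -0.76 (adjusted p = 0.0699).

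In the other lists 0 passed. Of all probe sets, 58.4% had a change below 0. The 6 thymus epithelium markers were Foxn1, Prss16, Psmb11, Dll4, Krt5 and the member Ccl25. All 6 were below 0, and their sums did not overlap (1810 to 1830 in controls, 1630 to 1770 in mutants). The part of thymic tissue in these sums was not tested. Prss16, a thymic protease, was closest to passing at -0.33 (adjusted p = 0.0504). Changes below 0 numbered 8 of 10 for neutrophils, 6 of 6 for platelets and 7 of 8 for mesenchyme. They numbered 5 of 6 for mesothelium, 6 of 7 for red blood cells and 2 of 9 for endothelium. The sums of these 6 lists overlapped between the groups. Among all probe sets below the median of signal, 9557 of 14407 had a change below 0. Of the 10 neutrophil markers, 0 lay at or above that median. The part of any of the cell types listed in the value of Ccl28 was not tested. Chemokine genes left out by the naming rule did not pass either. Cxcr1 and Cxcr2, deposited under the older symbols Il8ra and Il8rb, differed by -0.07 and -0.09 on the log2 scale (adjusted p = 0.800 and 0.771). The scavenging receptors Ackr1 and Ackr2 had -0.16 and -0.12, and the platelet chemokines Pf4 and Ppbp had -0.19 and -0.23, beside platelet marker sums of 2620 to 3350 in controls and 2230 to 2920 in mutants.

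The machinery around the family was read from 3 further lists. Of 25 genes of chemokine receptor signal transduction, 0 passed and 14 had a change above 0, with the G protein subunit genes Gng2 at -0.14 and Gnai1 at -0.18 and the small GTPase Rap1a at 0.11 as the smallest p-values (adjusted p = 0.342, 0.377 and 0.475). Of 10 genes that cleave, shed or hold chemokines, 0 passed and 8 were below 0. Dpp4, the peptidase that inactivates Cxcl12 and Cxcl10, had a change of -0.36 (SE 0.08, adjusted p = 0.124). The proteoglycan Gpc3 at -0.11 and the protease Ctsg at -0.23 had the next smallest p-values. Of 18 NF-kB, interferon and cytokine genes, not all of them inducers of chemokines, 0 passed and 13 were below 0. Il1b was at -0.23 (adjusted p = 0.177), Tnfaip3, an NF-kB feedback inhibitor, at -0.11 and Irf1, an interferon-responsive factor, at -0.10.

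Chemokine genes lie in clusters, and the changes were read by position. The 14 members on chromosome 11, most of them CC ligands, had 4 changes above 0 and 10 below with a median of -0.03, and 0 passed. The 14 on chromosome 9, nearly all receptors, had a median of -0.02, and the 11 on chromosome 5, mostly CXC ligands, had a median of -0.02, again with 0 passing in each. Ccl28 lies outside these clusters, on chromosome 13.

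The genes beside Ccl28 were examined after its value was seen, using the gene order of RefSeq GRCm38.p6. Of the 13 measured neighbours, 8 before and 5 after it, 1 fell and 0 rose. A change below 0 was seen in 11 of them, against 58.4% of all probe sets. The groups did not overlap on the lower side for 7 of the 13, against 10.1% of all probe sets. The uncharacterised gene 4833420G17Rik read 10.61, 10.44 and 10.36 in controls and 9.66, 9.70 and 9.58 in mutants, far apart in every array. It fell by 0.82 on the log2 scale (limma, adjusted p = 0.00930).

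Tmem267, a membrane protein gene directly before Ccl28 in this order, read 10.17, 9.98 and 9.82 in controls and 9.25, 9.31 and 8.75 in mutants. Its groups did not overlap, and its log2 change of -0.89 did not pass (adjusted p = 0.0567). Zfp131, a zinc finger gene, had -0.39 (adjusted p = 0.0977), and Nnt, a mitochondrial transhydrogenase gene, had -0.23 (adjusted p = 0.149). Nim1k, a kinase gene, went the other way at 0.29 (adjusted p = 0.129). Fgf10, the growth factor of lung branching, had a change of 0.07 (adjusted p = 0.755). With each array left out in turn, 10 to 12 of the 13 neighbours had a change below 0. The number of neighbours that passed as lower was 0 without mutant 2, 2 without mutant 3 and 1 in each other case.

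As background, Nnt carries a deletion in C57BL/6J mice and not in most other strains. The labels give a background mixed from C57BL/6 with other strains, and whether the groups carried different strain alleles of this stretch was not tested. Of 16 neighbours of Cxcl16, 9 were below 0 with a median change of -0.03, and of 16 neighbours of Cxcr7, 8 were below 0 with a median of -0.00488. In both sets 0 passed, while the median for the neighbours of Ccl28 was -0.17.

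**Figure D4:**
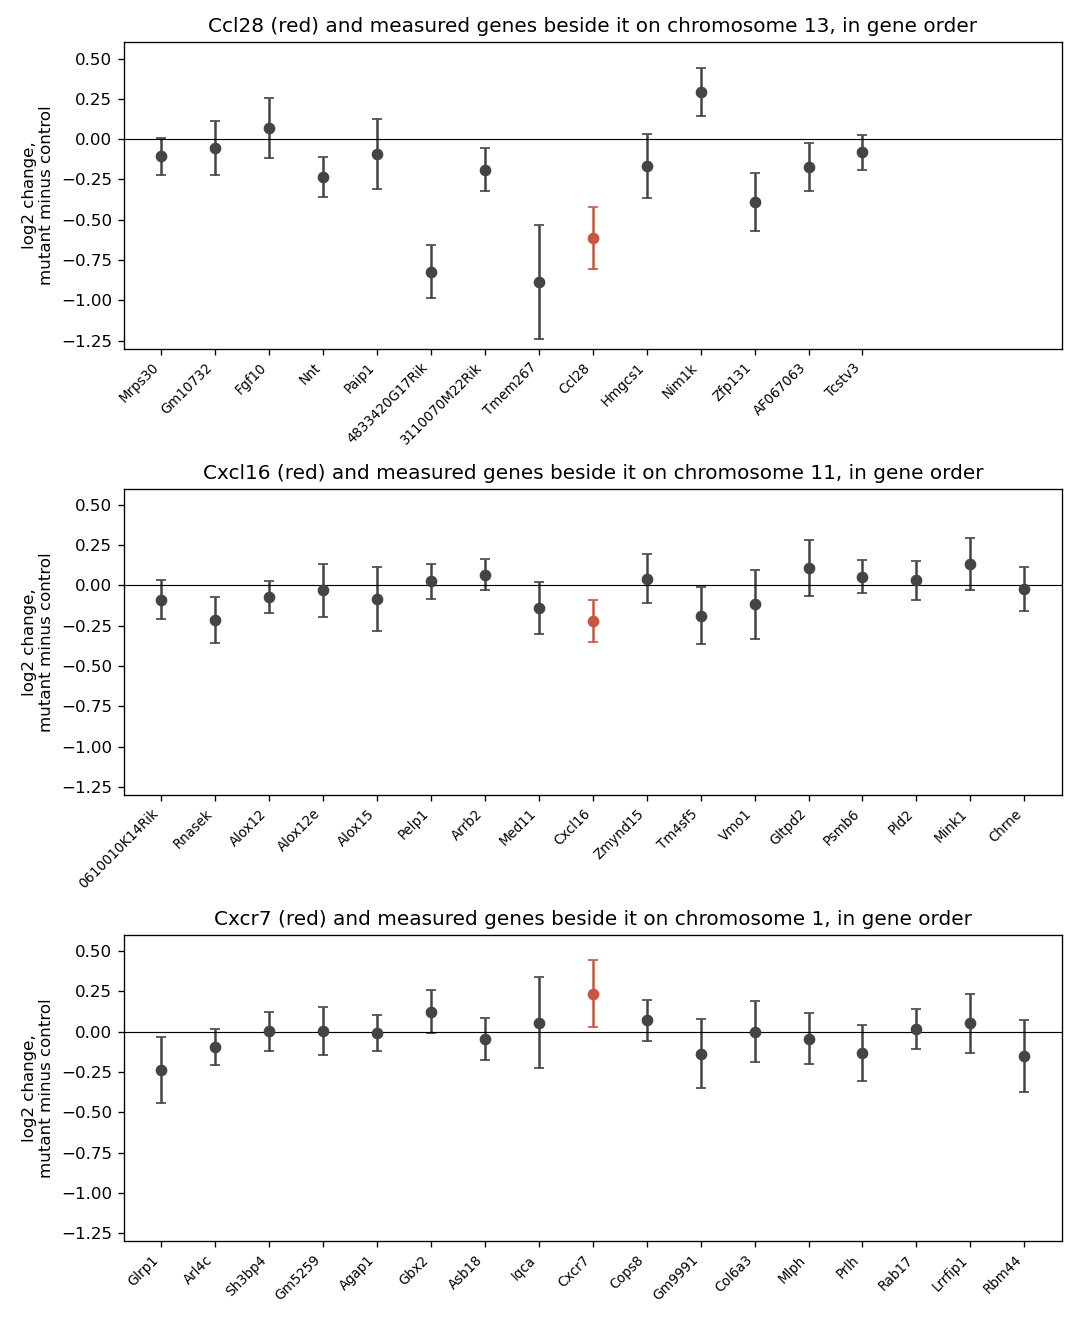
Log2 change, mutant minus control, with the 95% interval (limma, n = 3 arrays per group) for the measured genes beside Ccl28, Cxcl16 and Cxcr7, in the order in which they lie on the chromosome. Around Ccl28, 11 of 13 neighbours lie below 0, down to -0.89 for Tmem267, while the neighbours of Cxcl16 and Cxcr7 scatter around 0.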

How the data were processed

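Total RNA of whole lung was amplified, biotin-labelled and hybridised, 1 array per embryo, per the labels' protocols. The deposited log2 values were made by the authors with RMA, per the submitters' processing notes. The authors' deposited table adds their signed fold, difference score, q-value in percent and p-value per probe set, per the file headers. For array type, genome build, software version and the authors' test, the sources used here give nothing. The 6 value columns of both tables were identical for all 28815 probe sets. The number of arrays limits the precision.

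Groups were compared by limma's lmFit and eBayes (version 3.58.1, R 4.3.3), with no covariate or filter. P-values were adjusted by Benjamini-Hochberg over the whole array, after a test on simulated data. Whole marker lists were summed on the linear scale. The text names every member that passed, the 5 with the smallest p per role, whole roles of up to 5, members with groups apart and a change of at least 0.2, and their axis partners; others are given by range, and 1 is not reported here. Members and lists were chosen with earlier results of these data known. Motifs were searched with Python 3.11.15. The alternatives were a replicate block, other eBayes options, filters on dim probe sets, 2 normalizations, array weights, thresholds, all probe sets per gene, updated symbols and each array left out. Same-numbered arrays did not deviate together (correlations of -0.194, 0.0395 and -0.185). Differently numbered control and mutant arrays gave -0.0459 to 0.207.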

Additional observations from a re-analysis of the deposited data

How the results depend on the processing

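Ccl28 was below 0 under all 9 alternatives that refitted its change. Leaving aside the looser threshold, it passed under 9 of 13 alternatives, with adjusted p from 0.00306 to 0.0948. These passes include a threshold of at least 1.5-fold on the same fit, which the reported 1.53-fold fall already met. The fall passed with 3 of the 6 arrays left out in turn. With the replicate number as a block, 7 probe sets passed on the whole array in place of 223. In that fit 0 members were lower, Ccl28 at adjusted p = 0.0534. The labels do not say that the numbers pair the embryos. Array weights, whose estimate did not converge, gave 1748 probe sets, 1 member higher (Cxcl13, 0.35, adjusted p = 0.0498) and 2 lower (Ccl28 and Cxcl16, the latter -0.25, adjusted p = 0.0225). A threshold of 0.1 gave 360 probe sets. Keeping probe sets at or above the median of signal left 0 members lower, since Ccl28 was not among the 14 members kept. With each array left out, 11 to 152 probe sets passed, 18 without control 2 and 11 without mutant 2, and 0 to 1 members were lower. The median change of the members ran from -0.0438 to 0.0148. Its largest shift from the reported value was 0.0311, under the SD between replicates of 0.0430. It was above 0 with quantile normalization (0.00654), without control 3 (0.00802) and at or above the median of signal (0.0148). Of 29 named members, 6 had an interval that excluded 0 and 0 of these changed sign under an alternative, while 7 of the other 23 did. Scanner background was not used here, so dim members are limited by an unknown distance from it.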
